A study of Homo sapiens with 16 samples.

Results

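The 10 genes described here encode transporters that move zinc across the membranes of prostate cells, and they were followed through the 4 groups of the study. They are 6 importers of the ZIP family (SLC39A1, SLC39A6, SLC39A7, SLC39A9, SLC39A10 and SLC39A14) and 4 exporters of the ZnT family (SLC30A1, SLC30A5, SLC30A6 and SLC30A9), chosen by symbol, and all 10 were found among the 20531 entries of the count table. The cells were LNCaP, a single cell line grown from a metastasis of a human prostate carcinoma that responds to androgen. They received 40 nM of either a nonsense siRNA (NS) or a pool directed at SLIRP, an RNA-binding protein, and after 24 h were given 24 h of serum-free medium holding ethanol vehicle or 1 nM dihydrotestosterone (DHT), the androgen. The 2 control groups are called NS-Veh and NS-1nM DHT, and the 2 knockdown groups SLIRP-Veh and SLIRP-1nM DHT. Each had 4 libraries, so every library comes from transfected cells and no library of untouched cells was used here. The study's methods give 2 biological replicates in each of 2 experiments. Neither they nor the labels say which libraries belong to which experiment. P-values thus measure the spread between these libraries, which includes any difference between the experiments and may be partly technical.

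ZIP proteins bring zinc into the cytoplasm from outside the cell or from organelles, and ZnT proteins carry it out of the cell or into organelles. Healthy prostate epithelium holds more zinc than most tissues, and its secretion is rich in citrate as well as zinc. Prostate cancers lose much of this zinc. The transcription factor MTF1 senses zinc and binds metal response elements in front of its targets, among which are SLC30A1 and the metallothioneins, small proteins that hold zinc.

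Library totals lay between 436353 and 1689708 estimated counts, and 3 counts, taken as the least that a library can show, corresponded to between 1.78 and 6.88 CPM (a count divided by the library total, brought to a common scale by the TMM method). This floor covers counting error only. SLIRP, listed under its former symbol C14orf156, was at 45.1 to 63.4 CPM in the 8 NS libraries, whereas SLIRP siRNA left 1.41 to 8.04 CPM in the other 8. All 8 markers of luminal prostate epithelium were above 0 in every library, whereas the basal markers KRT5 and TP63, the stromal marker DCN and the blood cell markers PTPRC and CD3E were at 0 in every library. The third basal marker, KRT14, reached at most 1.54 CPM with 13 libraries at 0. Of the other stromal markers COL1A2 was at 0 in 15 libraries. COL1A1 and COL3A1 were present at a low level, at 5.64 to 21.9 CPM and 1.30 to 11.3 CPM, and their part in the results was not tested. CD68 of macrophages reached at most 7.83 CPM with 1 library at 0, and SYP of neuroendocrine cells at most 8.07 CPM with 3 libraries at 0. The summed level of the luminal markers was 3665 to 3987 CPM in NS-Veh, 3732 to 4343 in NS-1nM DHT, 2722 to 2895 in SLIRP-Veh and 3017 to 3436 in SLIRP-1nM DHT. The sum was made up mostly of FOLH1, with a mean of 2100.3 CPM in NS-Veh and 1319 in SLIRP-Veh. Other luminal markers differed in direction between these groups, with the mean of KRT8 at 363 and 258 CPM, but that of KLK3 at 39.5 and 96.6 and that of TMPRSS2 at 98.3 and 129.7. Their part in the results was not tested. Fewer cells of one state and less RNA per cell cannot be told apart in bulk RNA.

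Before the levels, the stretch in front of 3 members is shown: SLC39A10, which differed both with SLIRP siRNA and with DHT, SLC30A9, which had the largest difference with SLIRP siRNA among the members, and SLC30A1, the exporter that zinc induces through MTF1. Each window is 250 bases of GRCh37, printed 5′ to 3′ on the strand of the gene, and ends just before an annotated exon with no annotated exon inside. Capitals mark a metal response element (TGCACNC or TGCGCNC) or an androgen response element half-site (TGTTCT), looked for on both strands.
SLC39A10 (chr2:196521221-196521470, plus strand): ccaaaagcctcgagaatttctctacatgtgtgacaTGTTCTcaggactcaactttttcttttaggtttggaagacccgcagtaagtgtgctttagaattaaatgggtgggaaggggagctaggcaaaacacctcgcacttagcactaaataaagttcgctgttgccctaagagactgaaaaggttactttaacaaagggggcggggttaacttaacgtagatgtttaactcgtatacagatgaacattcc
SLC30A9 (chr4:41992269-41992518, plus strand): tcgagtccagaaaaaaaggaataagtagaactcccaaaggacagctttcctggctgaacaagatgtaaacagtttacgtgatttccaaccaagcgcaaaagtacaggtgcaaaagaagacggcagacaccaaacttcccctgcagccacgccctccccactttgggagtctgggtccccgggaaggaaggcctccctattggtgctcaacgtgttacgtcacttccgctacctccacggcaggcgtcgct
SLC30A1 (chr1:211752504-211752753, minus strand): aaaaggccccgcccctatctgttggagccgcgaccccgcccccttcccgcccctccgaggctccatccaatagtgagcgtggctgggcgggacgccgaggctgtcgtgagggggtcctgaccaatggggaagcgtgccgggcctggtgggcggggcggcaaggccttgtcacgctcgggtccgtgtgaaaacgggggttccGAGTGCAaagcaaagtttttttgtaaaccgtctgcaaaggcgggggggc

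The SLC39A10 window lies in an intron of the annotated transcript that reaches furthest upstream and before the first exon of the other long transcripts. It held 1 androgen response element half-site, beginning 215 bases before the exon, and 0 metal response elements. The SLC30A9 window held neither motif, and the SLC30A1 window held 1 metal response element on the opposite strand, 49 bases before the exon. For the background, 24.8% of 35116 RefSeq promoter windows of the same length (GRCh38.p14) held a metal response element and 12.4% a half-site. RefSeq windows were at hand for 9 of the 10 members, 12 windows in all. Of the 12 windows 4 held a metal response element (1 each of SLC30A1, SLC30A6, SLC39A1 and SLC39A6) and 2 a half-site (1 each of SLC30A5 and SLC39A1). The motifs of SLC39A1 were in different windows. Neither RefSeq window of SLC39A10 had a half-site, so a motif there depends on which start is taken. The windows also differed in base composition, with 42.4% G and C for SLC39A10, 52.8% for SLC30A9 and 66.4% for SLC30A1. These matches describe the letters only.

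How much of each transporter LNCaP cells made was read per length, as CPM per kilobase of annotated exons. Among the 10 members the level per length in NS-Veh was highest for SLC39A6 (the zinc importer also called LIV-1) at 72.6 ± 5.58 (SD, n = 4) and next for SLC39A9, an importer of the Golgi and cell surface, at 67.2 ± 9.46 (SD, n = 4). SLC39A10, which pairs with SLC39A6 at the cell surface, followed at 53.2 ± 11.7 (SD, n = 4). SLC39A7, which releases zinc from the endoplasmic reticulum, stood at 48.1 ± 0.922 (SD, n = 4), and SLC30A9, the zinc exporter of mitochondria, at 45.7 ± 5.25 (SD, n = 4). Within these 5 the libraries of neighbours in the order overlapped. SLC30A5, which loads zinc into the secretory pathway together with SLC30A6, came next at 30.7 ± 3.98 (SD, n = 4) without overlapping SLC30A9, and overlapped SLC39A1, an importer studied for zinc uptake by prostate epithelium, at 27.5 ± 2.57 (SD, n = 4). Below these, and each without overlap to its neighbours, lay SLC39A14, an importer of zinc, iron and manganese, at 17.9 ± 1.39 (SD, n = 4), SLC30A6 at 7.54 ± 0.363 (SD, n = 4) and SLC30A1, the exporter of the cell surface, at 0.981 ± 0.534 (SD, n = 4).

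The order was not the same in the other groups. In NS-1nM DHT the level per length of SLC39A10 was 91.7 ± 6.33 (SD, n = 4), beside 92.2 ± 8.08 (SD, n = 4) for SLC39A6, and these libraries overlapped. In SLIRP-Veh SLC39A10 was at 29.0 ± 4.38 (SD, n = 4), beside 106.6 ± 14.9 (SD, n = 4) for SLC39A6. SLC30A9 went from the level of SLC39A7 in NS-Veh to 15.8 ± 1.69 (SD, n = 4) in SLIRP-Veh, below SLC39A14 at 23.9 ± 2.08 (SD, n = 4) there. SLC30A1 remained the lowest of the 10 in all 4 groups, with 1 to 18 counts in a library.

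**Figure D1:**
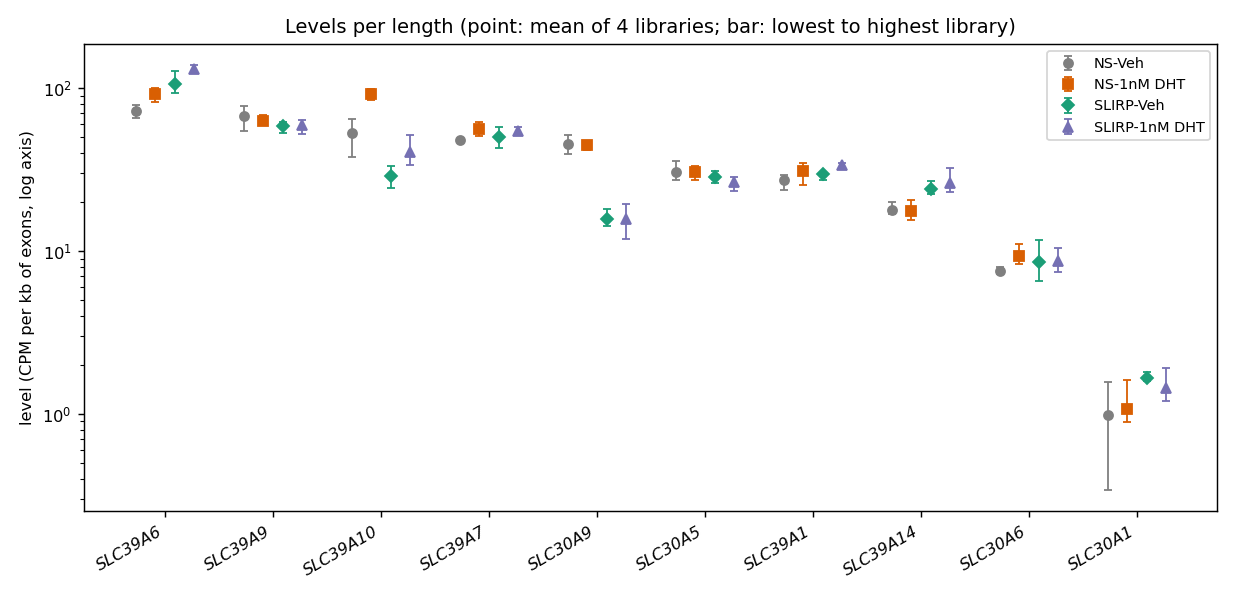
Level of each transporter in CPM per kilobase of annotated exons on a log axis, with the mean of 4 libraries as the point and the lowest to highest library as the bar. Transporters stand in the order of their NS-Veh means, from SLC39A6 at 72.6 to SLC30A1 at 0.981; SLC39A10 and SLC30A9 show the widest gaps between groups.

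The first comparison asked what SLIRP siRNA does whatever the treatment, with 8 libraries against 8. With SLIRP siRNA the mitochondrial exporter SLC30A9 and the importer SLC39A10 were lower, and the importers SLC39A6 and SLC39A14 were higher. These 4 of 9 members tested passed 0.01 as the false discovery rate (FDR, after Benjamini and Hochberg) in edgeR's quasi-likelihood test, against 35.2% of all 10167 genes tested (17.8% higher and 17.4% lower), so that the members' share was near that of all genes. SLC30A1 had too few counts to be tested here. The median log2 fold change over the 9 members was -0.00, and over all genes -0.01. The log2 fold change was -1.51 (SE 0.083, FDR 3.50e-15) for SLC30A9 and -1.07 (SE 0.15, FDR 8.30e-07) for SLC39A10. It was 0.51 (SE 0.090, FDR 2.09e-05) for SLC39A6 and 0.47 (SE 0.085, FDR 3.23e-05) for SLC39A14. The 8 libraries on each side did not overlap for SLC30A9 and SLC39A14, 2 of the 10 members against 15.2% of all genes.

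The levels of SLC30A9 showed the separation in each library. Its CPM in replicates 1 to 4 were 320.2, 243, 272 and 291 in NS-Veh and 258, 291, 287 and 276 in NS-1nM DHT. With SLIRP siRNA they were 98.3, 87.7, 91.5 and 111 in vehicle and 73.0, 86.0, 120.4 and 107 in DHT. Every library with SLIRP siRNA was thus under the lowest NS library, and vehicle and DHT libraries of one siRNA overlapped. In vehicle the log2 fold change with SLIRP siRNA was -1.52 (SE 0.11, edgeR FDR 4.46e-13), or 2.86-fold lower, and in DHT it was -1.49 (SE 0.11, edgeR FDR 3.34e-13), or 2.82-fold lower. The test of the difference between these gave 0.02 (SE 0.16, unadjusted p from edgeR 0.892), with a 95% interval from -0.30 to 0.34. DHT against vehicle gave -0.02 (SE 0.083, edgeR FDR 0.942) for SLC30A9 in NS cells and 0.00 (SE 0.13, FDR 0.996) in SLIRP siRNA cells. SLC30A9 lies on chromosome 4, from 41992519 to 42092478 on the plus strand (GRCh37), where the annotation places a pseudogene of ATP1B1 inside it.

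SLC39A10 lies on chromosome 2, from 196440701 to 196602426 on the plus strand (GRCh37). Its CPM in replicates 1 to 4 were 310.2, 350.0, 226 and 391 in NS-Veh and 505, 538, 594 and 567 in NS-1nM DHT. With SLIRP siRNA the libraries held 159, 146, 192 and 201 CPM in vehicle and 223, 203, 309 and 239 CPM in DHT. All DHT libraries were above all vehicle libraries of the same siRNA, and all SLIRP siRNA libraries below all NS libraries of the same treatment. Taken over both treatments the siRNAs overlapped, since replicate 3 of NS-Veh was below 2 of the SLIRP-1nM DHT libraries. SLIRP siRNA gave a log2 fold change of -0.85 (SE 0.13, edgeR FDR 3.09e-06) in vehicle, 1.80-fold lower, and of -1.17 (SE 0.12, edgeR FDR 5.98e-10) in DHT, 2.24-fold lower.

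In NS cells DHT raised SLC39A10 by a log2 fold change of 0.81 (SE 0.11, edgeR FDR 8.25e-06), 1.75-fold. By limma on the authors' normalized table the value was 0.83 with an FDR of 0.231. In edgeR SLC39A10 was the only one of 9 members tested that passed the FDR of 0.01 in that comparison, in which 136 of 10367 genes passed, or 1.31% (0.849% higher and 0.463% lower). The study used the same libraries to draw up its list of androgen-regulated genes, on which SLC39A10 stands, so that list is not independent evidence of this direction. In SLIRP siRNA cells the DHT difference for SLC39A10 was 0.49 (SE 0.13, edgeR FDR 0.0326), which did not pass 0.01. With no filter on low counts it was 0.50 (edgeR FDR 1.80e-04) and passed, while the other alternatives at an FDR of 0.01 did not. The difference between the 2 DHT responses of SLC39A10 was itself tested, giving -0.32 (SE 0.18, 95% interval -0.67 to 0.03) with an unadjusted edgeR p of 0.0826 and an FDR of 1.00, so the responses of SLC39A10 were not shown to differ between siRNAs.

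SLC39A6 moved the other way from its partner SLC39A10 with SLIRP siRNA. Its CPM in replicates 1 to 4 were 260.2, 289.7, 242 and 277 in NS-Veh and 359.6, 305, 326 and 369 in NS-1nM DHT. In SLIRP-Veh they were 344, 469.7, 391 and 365, and in SLIRP-1nM DHT 509.9, 479, 485 and 457. The SLIRP siRNA libraries lay above all NS libraries of the same treatment. The log2 fold change of SLC39A6 was 0.55 (SE 0.094, edgeR FDR 1.59e-05) in vehicle and 0.51 (SE 0.087, edgeR FDR 1.50e-05) in DHT. With DHT it was 0.35 (SE 0.084, edgeR FDR 0.0141) in NS cells, where the libraries did not overlap, and 0.31 (SE 0.088, edgeR FDR 0.0387) in SLIRP siRNA cells, where replicate 2 of SLIRP-Veh was above 1 of the DHT libraries. Neither value passed 0.01. Of the libraries left out singly, only 1 omission let each value pass. The NS value also passed with replicate number as a block (0.36, edgeR FDR 0.00209) and with no filter on low counts (0.36, edgeR FDR 0.00216). Without replicate 2 of NS-1nM DHT the NS value was 0.40 (edgeR FDR 0.0093), and without replicate 2 of SLIRP-Veh the SLIRP siRNA value was 0.41 (edgeR FDR 0.0039). These were the largest values with a library left out. The smallest were 0.29 in NS cells and 0.27 in SLIRP siRNA cells. SLC39A6 is on chromosome 18, from 33688494 to 33709348 on the minus strand (GRCh37).

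SLC39A14 had CPM of 108, 111, 125 and 105 in NS-Veh and 97.5, 110.3, 129 and 105 in NS-1nM DHT. The values with SLIRP siRNA were 140.3, 169, 144 and 146 CPM in vehicle and 153, 203, 155 and 145 CPM in DHT. No SLIRP siRNA library reached down to an NS library in either treatment, and replicate 2 was the highest of its group in both SLIRP siRNA groups. In DHT the log2 fold change was 0.55 (SE 0.11, edgeR FDR 1.72e-04). In vehicle it was 0.38 (SE 0.12, edgeR FDR 0.0112) and missed the threshold, while without replicate 3 of NS-Veh it was 0.48 (edgeR FDR 0.0082). Other single omissions did not pass, with values down to 0.32. The vehicle value also passed with no filter on low counts (0.39, edgeR FDR 0.00974) and with replicate number as a block (0.40, edgeR FDR 0.00424). It passed too with only the groups compared in the model (0.37, edgeR FDR 0.00903), but not in DESeq2, with upper-quartile normalization or in limma. The difference in DHT was greater than that in vehicle by 0.17 (SE 0.16), with a 95% interval from -0.15 to 0.49 that includes 0.

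**Figure D2:**
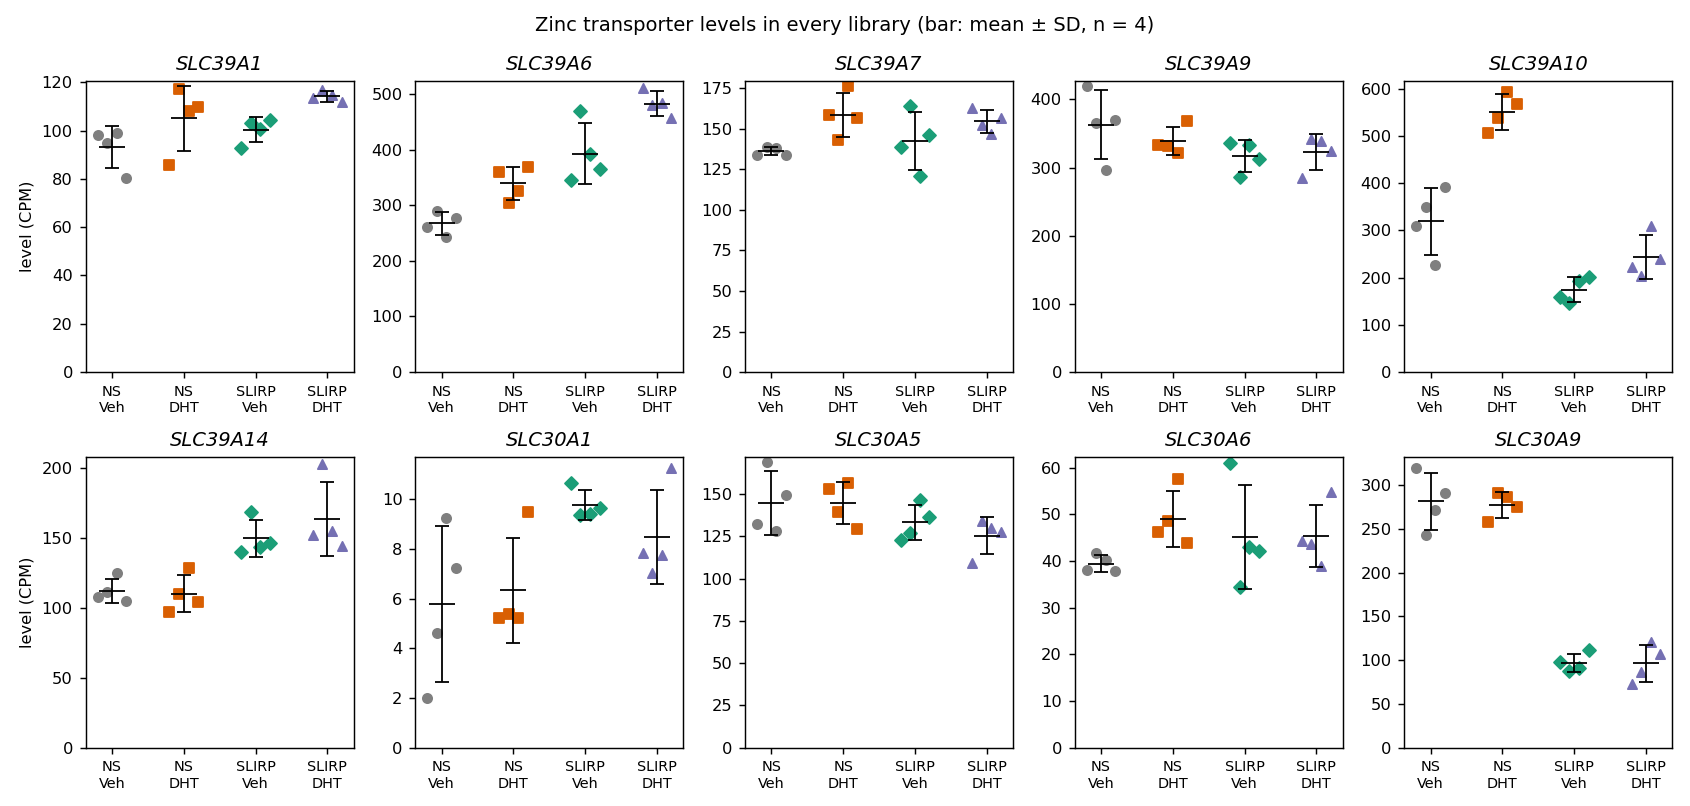
CPM of each transporter in every library, with the mean ± SD of 4 libraries as the black bars and each vertical axis starting at 0. The 8 SLIRP siRNA libraries of SLC30A9 sit between 73.0 and 120.4 CPM and the 8 NS libraries between 243 and 320.2, and the NS-1nM DHT libraries of SLC39A10 sit above all others.

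Compared within one treatment, 3 of the 10 members passed the FDR of 0.01 with SLIRP siRNA in vehicle (SLC39A6 higher, SLC39A10 and SLC30A9 lower), against 21.7% of 10684 genes (11.8% higher and 9.95% lower). In DHT 4 of 10 passed, the same 3 and SLC39A14, against 24.4% of genes (12.8% higher and 11.6% lower). Libraries did not overlap for 5 members in vehicle (29.3% of all genes) and for 4 in DHT (32.2% of all genes). The fifth in vehicle was SLC30A1, and its values are near the floor. The median log2 fold change over the 10 members was 0.09 in vehicle and -0.05 in DHT, beside -0.01 and -0.02 over all genes. By family, 2 of 6 ZIP importers passed in vehicle and 3 of 6 in DHT, and 1 of 4 ZnT exporters passed in each, which was SLC30A9 both times.

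With DHT in NS cells the median over the 9 members tested was 0.20, beside 0.00 over all genes, and libraries did not overlap for 4 members (8.77% of all genes): SLC39A6, SLC39A7, SLC39A10 and SLC30A6. SLC39A7 gave a log2 difference of 0.21 (SE 0.096, edgeR FDR 0.302) and SLC30A6 one of 0.31 (SE 0.16, edgeR FDR 0.385). In SLIRP siRNA cells 0 of 10 members passed the FDR of 0.01 with DHT in edgeR, while 2 had an unadjusted p under 0.05 (SLC39A6 and SLC39A10) and 0 passed in DESeq2. Of all genes 1.17% passed the FDR there (0.636% higher and 0.534% lower) and 15.6% had such an unadjusted p. Libraries did not overlap there for 2 members, SLC39A1 and SLC39A10, against 8.40% of all genes. For the difference between the DHT responses edgeR called 0 of 10 members and 0 of 10684 genes, with 0 members and 388 genes (3.63%) at an unadjusted p under 0.05, and DESeq2 called 0 members. These comparisons share libraries with one another.

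**Figure D3:**
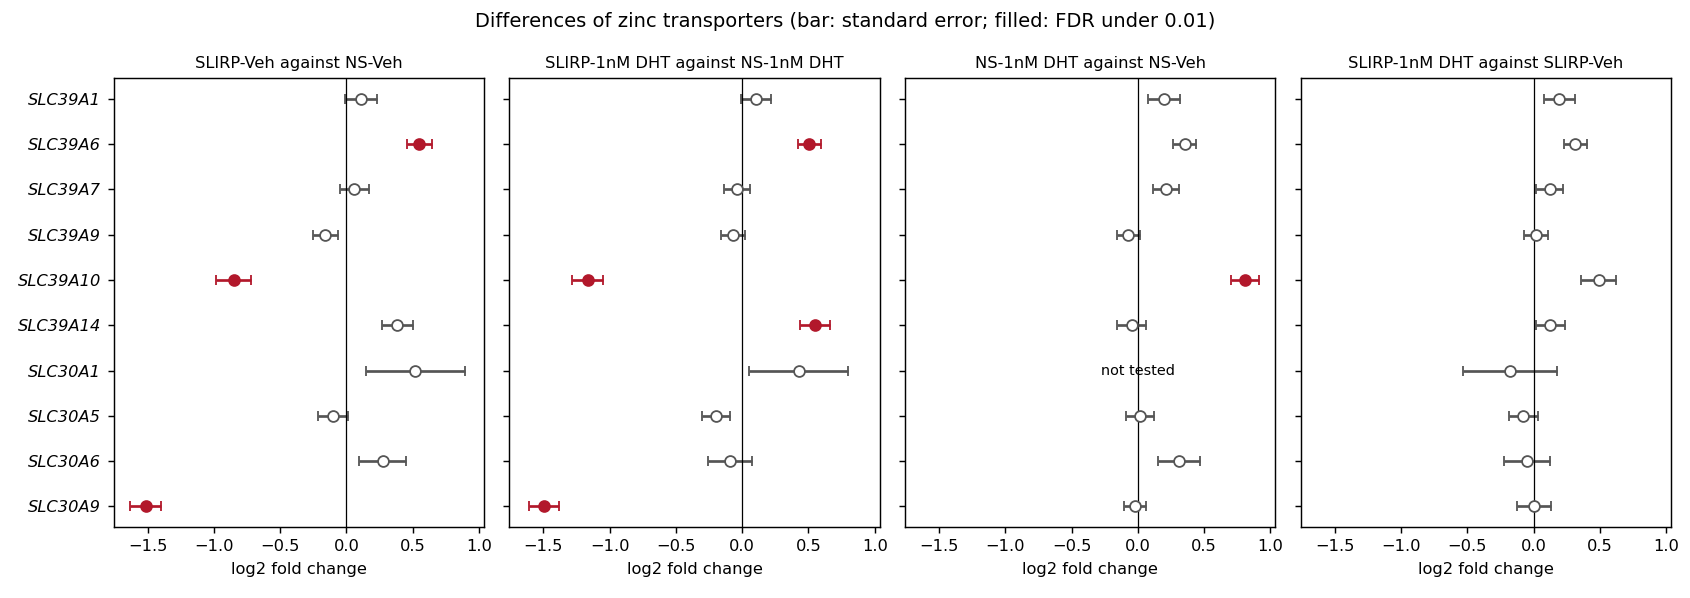
Log2 fold change of each transporter in 4 comparisons of groups, with the standard error as the bar and filled points for an FDR under 0.01. SLC30A9 lies near -1.5 and SLC39A6 near 0.5 in both comparisons of siRNAs, SLC39A10 is filled in 3 of the 4 comparisons, and no point is filled for DHT in SLIRP siRNA cells.

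The remaining members passed the FDR of 0.01 in none of the comparisons. SLC39A1 ranged from 80.3 to 99.1 CPM in NS-Veh, from 86.0 to 117 in NS-1nM DHT, from 92.9 to 104 in SLIRP-Veh and from 112 to 117 in SLIRP-1nM DHT. Its log2 difference with SLIRP siRNA was 0.11 (SE 0.12, edgeR FDR 0.525) in vehicle and 0.10 (SE 0.11, edgeR FDR 0.498) in DHT. SLC39A7 stayed between 121 and 177 CPM over the 16 libraries, and its differences with SLIRP siRNA were 0.06 (SE 0.11) in vehicle and -0.04 (SE 0.099) in DHT. These 2 importers thus had overlapping siRNA groups under both treatments. With DHT in SLIRP siRNA cells SLC39A1 differed by 0.19 (SE 0.11, edgeR FDR 0.434), although the libraries did not overlap. SLC39A9, which has also been described as a membrane androgen-binding protein, ranged from 284 to 420.3 CPM and differed by -0.16 (SE 0.094, edgeR FDR 0.195) in vehicle and -0.07 (SE 0.091, edgeR FDR 0.589) in DHT. With DHT its log2 difference was -0.07 (SE 0.088) in NS cells and 0.02 (SE 0.093) in SLIRP siRNA cells.

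The secretory pathway pair did not pass the FDR in any comparison either. SLC30A5 ranged from 109.5 to 169 CPM, with differences of -0.10 (SE 0.11) in vehicle and -0.20 (SE 0.11, edgeR FDR 0.154) in DHT. SLC30A6 ranged from 34.4 to 61.0 CPM, with 0.27 (SE 0.18, edgeR FDR 0.258) in vehicle and -0.09 (SE 0.17) in DHT, and its widest group was SLIRP-Veh, where replicate 1 was at 61.0 and replicate 2 at 34.4. Misses of the threshold at these standard errors do not show that the levels were equal.

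SLC30A1 was at 2.00, 4.64, 9.25 and 7.23 CPM in NS-Veh and 5.24, 5.40, 5.23 and 9.51 in NS-1nM DHT. It was at 10.7, 9.39, 9.42 and 9.64 CPM in SLIRP-Veh and 7.82, 7.05, 7.77 and 11.3 in SLIRP-1nM DHT. These levels rest on 1 to 14 counts in NS-Veh and 6 to 18 in SLIRP-Veh, so the first is partly under the floor of 3 counts. The log2 difference with SLIRP siRNA was 0.52 (SE 0.37, 95% interval -0.21 to 1.26, edgeR FDR 0.309) in vehicle and 0.43 (SE 0.37, edgeR FDR 0.404) in DHT, so neither passed the threshold.

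Several members share their place with another gene. SLC39A7 overlaps RXRB, SLC39A9 overlaps ERH and SLC39A1 overlaps CREB3L4, each on the opposite strand, and since the strand used in counting is not given in the sources used here their values are uncertain. SLC39A1 also overlaps a protein-coding locus on its own strand, so its counts are uncertain whatever the strand setting. SLC39A6 overlaps a long noncoding RNA locus on its own strand, so its counts are uncertain in the same way. SLC30A5 overlaps a long noncoding RNA locus on the opposite strand. SLC39A10, SLC39A14, SLC30A6 and SLC30A9 overlap only pseudogenes or small RNA loci, and SLC30A1 overlaps no annotated locus.

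The genes whose levels followed that of SLC39A10 most closely over the 16 libraries were looked for among the 2697 tested genes that averaged 100 counts or more. The 5 with the highest Pearson correlation were SGEF (r = 0.944, Spearman 0.941), EIF1AX (r = 0.926, Spearman 0.903), EIF5AL1 (r = 0.917, Spearman 0.941), ADAM9 (r = 0.906, Spearman 0.906) and POMGNT1 (r = 0.903, Spearman 0.903). The points share siRNA, treatment and library depth, so these values describe the 4 groups as much as the libraries. EIF5AL1 is a near copy of EIF5A, which makes its count uncertain.

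The other zinc genes were read from 3 lists. Of 14 other zinc transporters 7 were tested over the 16 libraries and 6 passed the FDR of 0.01 with SLIRP siRNA, 1 higher and 5 lower, beside 35.2% of all genes, with a median log2 fold change of -0.55. Higher was the importer SLC39A8 (0.69, SE 0.093, edgeR FDR 3.18e-07), whose libraries overlapped over both treatments and in vehicle, but not in DHT. Lower were the Golgi exporter SLC30A7 (-0.85, SE 0.11, edgeR FDR 1.20e-07) and SLC30A4, an exporter into vesicles (-0.64, SE 0.070, edgeR FDR 6.34e-09), with all SLIRP siRNA libraries below all NS libraries for both. The importers SLC39A13 (-0.83, edgeR FDR 0.00283), SLC39A11 (-0.55, edgeR FDR 3.34e-04) and SLC39A4 (-0.55, edgeR FDR 0.00933) were lower with overlapping libraries. Within vehicle and within DHT 3 of 8 tested passed, beside 21.7% and 24.4% of all genes, and they were SLC39A8, SLC30A4 and SLC30A7 each time. With DHT 0 of 7 passed in NS cells in edgeR and 0 of 8 in SLIRP siRNA cells, beside 1.31% and 1.17% of all genes. In SLIRP siRNA cells 2 of these 8 had an unadjusted edgeR p under 0.05, beside 15.6% of all genes.

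SLC30A4 showed the lower level in every SLIRP siRNA library. In replicates 1 to 4 it was 955, 883, 843 and 881 CPM in NS-Veh, 759, 736, 735 and 767 in NS-1nM DHT, 591, 481, 561 and 614 in SLIRP-Veh and 490.4, 459.7, 492 and 489 in SLIRP-1nM DHT. Its locus overlaps the antisense gene SLC30A4-AS1, so its reads are uncertain in the same way as those of SLC39A7. Like SLC30A9, it is an exporter that was lower with SLIRP siRNA in both treatments, by 1.57-fold in vehicle (edgeR FDR 8.60e-09) and 1.55-fold in DHT (edgeR FDR 1.35e-08).

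Metallothioneins had few counts in LNCaP cells. None of the 12 was tested over the 16 libraries, and MT2A alone was tested in the 4-group model, with 1.01 (SE 0.47, edgeR FDR 0.0981) in vehicle and 0.80 (SE 0.50, edgeR FDR 0.223) in DHT. MT2A had 2 to 28 counts in a library and MT1X 0 to 10, and as copies of one another these genes have uncertain counts. Of 9 genes of zinc sensing and zinc-linked metabolism 6 were tested over the 16 libraries and 3 passed with SLIRP siRNA, beside 35.2% of all genes. MTF1, the zinc sensor, was higher (0.42, SE 0.11, edgeR FDR 0.00161), as was CS, which makes citrate (0.23, SE 0.073, edgeR FDR 0.00907). ACO1, a cytosolic enzyme that doubles as an iron sensor, was lower, by a log2 fold change of -0.39 (SE 0.092, edgeR FDR 7.73e-04). In DHT the same 3 passed (24.4% of all genes), and in vehicle (21.7% of all genes) IDH2 alone passed, a mitochondrial isocitrate dehydrogenase, with 0.37 (SE 0.11, edgeR FDR 0.00867). MTF1 and CS each overlap another protein-coding locus on the same strand, so their counts are uncertain too.

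**Figure D4:**
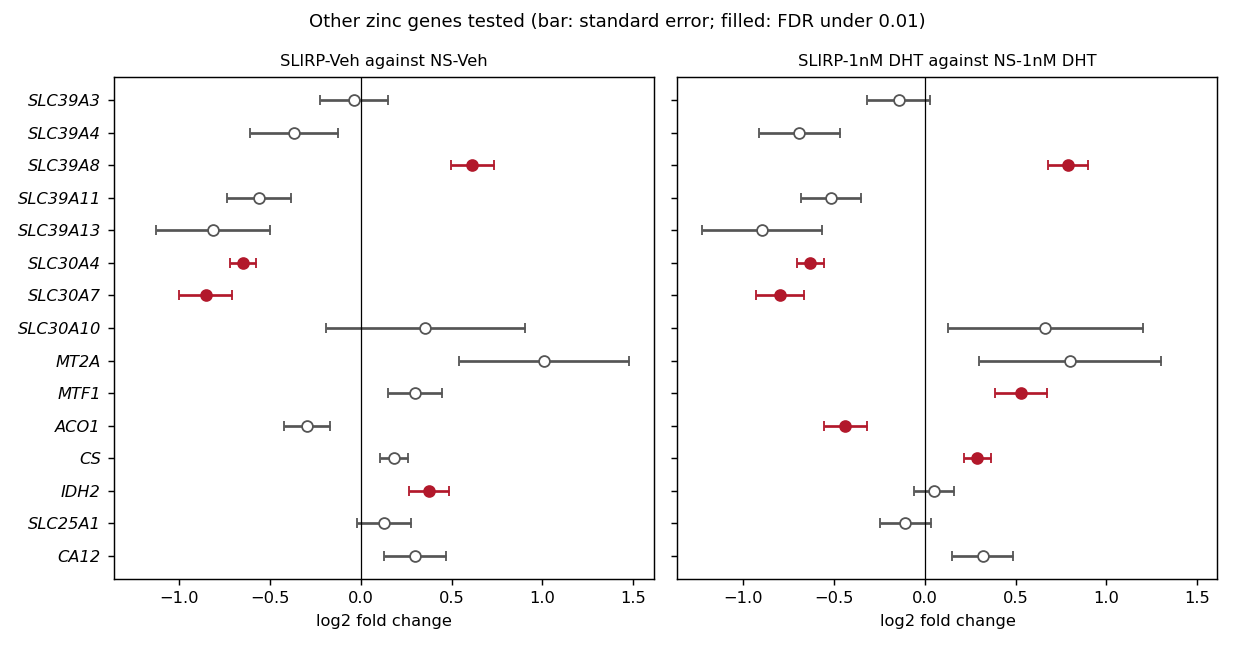
Log2 fold change with SLIRP siRNA in vehicle and in DHT for the zinc genes beyond the 10 members that had enough counts, with the standard error as the bar and filled points for an FDR under 0.01. SLC39A8 lies to the right and SLC30A4 and SLC30A7 to the left in both panels, whereas MTF1, ACO1 and CS are filled in DHT and IDH2 in vehicle.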

How the data were processed

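RNA of LNCaP cells was sequenced as single 50-base reads in 16 libraries. The authors deposited estimated counts per gene, rounded to whole numbers, and a normalized table of 13148 genes whose score is the estimated count of a library divided by its upper quartile and multiplied by 1000. Per the submitters' processing notes, CASAVA, RSEM and hg19 were used. Versions and annotation are not given in the sources used here. Of the 20531 entries 29 had no symbol and held 0.0353% of counts, and 3626 had 0 counts in every library.

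All genes of the deposited estimated counts entered edgeR 4.0.16 in R 4.3.3 (TMM, filterByExpr, glmQLFit, glmQLFTest). P-values were adjusted by the method of Benjamini and Hochberg across every gene tested, and calls were made at an FDR of 0.01. SLIRP siRNA and NS were compared over 16 libraries, DHT and vehicle in NS cells over 8, and the rest in a 4-group model. The standard error of an edgeR value is its log2 fold change, without sign, divided by the square root of its quasi-likelihood F statistic. Intervals are 1.96 such standard errors on either side. They are approximate, so an interval can exclude 0 where the p-value is above 0.05. Log2 CPM used a prior count of 2.

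Alternatives were an FDR of 0.05, DESeq2 1.42.0, upper-quartile normalization, no filter, a replicate block, limma 3.58.1 on log2 of the normalized score plus 1, other sets of libraries in the model, treatment as a covariate, and each library left out. Pairs of libraries within a group were compared by chi-square, which divided by its degrees of freedom was 1.211 to 2.307, above the 1 that sampling noise gives. Groups and replicate numbers come from the labels, and the study's methods give 2 biological replicates in each of 2 experiments without saying which numbers belong together. By rule the text names all 10 members, the genes of 3 zinc lists that passed the FDR in a comparison, and the 5 genes most like SLC39A10, except 1 gene that is not reported here. MT2A and MT1X were named after their values were seen. The members and lists were chosen with earlier results of these data known. Gene positions and lengths are from GENCODE on GRCh37, promoter windows from RefSeq (GRCh38.p14). Figures were drawn with matplotlib 3.10.9.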

Additional observations from a re-analysis of the deposited data

Results flagged for a closer look

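In 7 of the 84 groups of 4 libraries examined, 1 library lay further from the others than Dixon's 95% limit for the gap over the range allows, and chance alone gives about 1 group in 20. SLC30A1 in NS-1nM DHT replicate 4 was at 9.51 CPM, beside 5.23 to 5.40 in the other 3. SLC39A4 in SLIRP-1nM DHT replicate 1 was at 33.9 CPM, beside 22.5 to 24.3. SLC39A11 in the same library was at 54.8 CPM, beside 34.6 to 35.9. SLC39A8 in SLIRP-Veh replicate 2 was at 147 CPM, beside 188 to 195, and IDH2 in that library was at 149 CPM, beside 192 to 201. SLC30A4 in SLIRP-1nM DHT replicate 2 was at 459.7 CPM, beside 489 to 492. SLIRP itself, listed as C14orf156, was at 63.4 CPM in NS-Veh replicate 3, beside 57.8 to 58.0. No other member of the transporters had such a library.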

How the results depend on the processing

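For 12 member differences past the FDR of 0.01, 216 alternative values were computed: 215 kept direction and call, and 1 did not. In limma on the normalized table SLC39A10 with DHT in NS cells was 0.83 (FDR 0.231), where limma called 0 of 13148 genes; the cause was not tested. Of 46 differences that had not passed, 60 alternative values changed sign without passing (at most 0.21 in size, smallest FDR 0.682) and 13 passed, for SLC39A14 with SLIRP siRNA in vehicle, SLC39A6 with DHT under either siRNA, and SLC39A10 with DHT in SLIRP siRNA cells. No difference past the FDR reversed. With DHT in NS cells the number of members called was 1, and it was 2 at an FDR of 0.05, 2 with no filter, 2 with the replicate block, 0 in limma, and 1 to 2 with 1 library left out. With DHT in SLIRP siRNA cells it was 0, and 2 at an FDR of 0.05, 1 with no filter and 0 to 1 with 1 library left out. SLIRP siRNA called 3 to 4 members in vehicle with 1 library left out and 4 throughout in DHT and over 16 libraries. The 2 smallest NS-Veh libraries were left out together as a choice made after seeing the data, which gave 3 members with SLIRP siRNA in vehicle and 1 with DHT in NS cells, as before. The median NS-Veh level over the 10 members was 38.2 CPM per kilobase of exons and 41.0 with the longest transcript as the length.

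Replicate numbers were not taken to pair the libraries, since a correlation over 0.1 in every same-numbered pair was asked for and no pair of groups met it. Over genes averaging 30 counts or more, deviations of same-numbered libraries had mean correlations of 0.0287 (NS-Veh and SLIRP-Veh), 0.093 (both DHT groups), 0.137 (both NS groups, 0.0504 to 0.201, so 1 pair fell short) and 0.0962 (both SLIRP siRNA groups). Of the 8 libraries in each, 3, 5, 5 and 3 correlated best with their own number. Chi-square over its degrees of freedom was lowest for replicates 1 and 2 (1.22 and 1.211) and for 3 and 4 (1.38 and 1.301) in NS-Veh and NS-1nM DHT, with 1.447 to 1.886 for the other pairs there. The SLIRP siRNA groups did not share this pattern. In SLIRP-Veh it was 1.215 for 3 and 4, but 1.902 for 1 and 2, above 1.525 for 1 and 3. In SLIRP-1nM DHT it was 1.521 for 1 and 2, but 1.756 for 3 and 4, above 1.732 for 1 and 3. With the replicate block the genes called with DHT in NS cells went from 136 to 270, SLC39A6 among them (0.36, FDR 0.00209), and the calls among members were 4 over 16 libraries, 4 with SLIRP siRNA in vehicle, where SLC39A14 passed (0.40, FDR 0.00424), and 4 in DHT, and 0 for DHT in SLIRP siRNA cells and for the difference between responses. SLC30A1, with 1 to 18 counts in a library, had the fewest counts of the members.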
